A study of Mus musculus with 5 samples.

Results

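Checkpoint and costimulatory molecules on macrophages set how strongly a T cell responds once it has bound antigen. The 10 genes described here were taken by name: the inhibitory ligands Cd274 (PD-L1), Pdcd1lg2 (PD-L2), Vsir (VISTA), Cd276 (B7-H3), Lgals9 (galectin-9) and Pvr (CD155), the CD28 ligands Cd80 and Cd86, and the receptors Cd40 and Havcr2 (TIM-3). They are 10 of the 24982 rows of the authors' deposited Cuffdiff table, each with 1 row that names no other gene, and all 10 were among its 12311 tested rows.

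The RNA came from macrophages taken straight from mouse tumors of 9609, an MCA fibrosarcoma line. The MEK1-hi group has 3 libraries, with MEK1-hi given as cell line and genotype and MEK1-hi exosomes as treatment. The MEK1-low group has 2 libraries, with MEK1-low as cell line and genotype and MEK1-low (GFP) exosomes as treatment. Exosomes are small vesicles that cells release. The authors' deposited table calls these groups MEK1_exo and GFP_exo. The labels give no mouse strain, age, time, sort or gate. Whether each library is a separate animal is not stated, nor is which group grew and which was rejected.

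PD-L1 and PD-L2 both bind PD-1 on T cells and restrain them. CD80 and CD86 bind the activating receptor CD28 and, more tightly, the inhibitory receptor CTLA-4. CD40 receives the signal of CD40 ligand from helper T cells and licenses the antigen-presenting cell. Interferon-gamma, acting in part through IRF1, is a known inducer of PD-L1, which tumor macrophages often carry.

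The promoters of 3 members are shown because Cd274 and Pdcd1lg2 are neighbors at very different levels, 1 called and 1 not. Lgals9 is shown because, among the members with a promoter window, only its window held a full interferon element. RefSeq windows of 250 bases before to 50 after the start (GRCm38.p6, the assembly of mm10) were present for 7 of the 10 members. Cd40, Cd86 and Pvr had no window and were not searched. The bases before the start are printed 5′ to 3′. Capitals mark GAAA on either strand in Cd274, the kappaB consensus in Pdcd1lg2 and, in Lgals9, the interferon-stimulated response element (a pair of GAAA cores with 2 bases between them), here on the reverse strand.
Cd274 (chr19:29367188-29367437, plus strand): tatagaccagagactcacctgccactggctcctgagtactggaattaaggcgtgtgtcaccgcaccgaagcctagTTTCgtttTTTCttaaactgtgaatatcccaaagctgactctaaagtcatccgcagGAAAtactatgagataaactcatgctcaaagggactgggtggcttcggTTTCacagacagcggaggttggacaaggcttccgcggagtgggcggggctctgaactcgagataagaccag
Pdcd1lg2 (chr19:29410669-29410918, plus strand): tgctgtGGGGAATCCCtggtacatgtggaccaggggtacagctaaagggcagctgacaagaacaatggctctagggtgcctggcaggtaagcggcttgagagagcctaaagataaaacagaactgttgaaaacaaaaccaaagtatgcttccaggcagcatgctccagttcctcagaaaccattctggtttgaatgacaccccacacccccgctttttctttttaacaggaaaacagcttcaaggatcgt
Lgals9 (chr11:78984925-78985174, minus strand): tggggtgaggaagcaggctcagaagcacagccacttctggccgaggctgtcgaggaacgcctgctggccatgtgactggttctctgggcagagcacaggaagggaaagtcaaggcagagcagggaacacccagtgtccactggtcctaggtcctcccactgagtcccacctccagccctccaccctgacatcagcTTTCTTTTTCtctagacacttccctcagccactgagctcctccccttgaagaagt

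Both strands of the 7 windows were searched. The gamma-activated sequence TTCNNNGAA, an element of interferon-gamma responses, was in 0 of the 7 windows and in 8.30% of all 32851 promoter windows. The interferon-stimulated response element was in the Lgals9 window only, 55 to 46 bases before the start and again 16 to 25 bases after it, and in 3.44% of all windows. The kappaB consensus, bound by NF-kB, was in the Pdcd1lg2 window only, 244 to 235 bases before the start, and in 8.46% of all windows. The short core GAAA stood 4 times in the printed bases of Cd274 and, not marked there, 4 times in those of Pdcd1lg2. Over whole windows it had 5 matches in Cd274, 5 in Lgals9, 4 in Pdcd1lg2 and 4 in Cd80. It is common, with 89.2% of all windows holding it. The interferon-stimulated response element contains GAAA, so those matches overlap. A match describes letters in the window, and a window without one says nothing of the factor.

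Cd274 and Cd40 rose in MEK1-hi macrophages and the other 8 members did not pass the test. Cuffdiff called 2 of 10 members higher and 0 lower at a q of 0.05. Over all tested rows, 0.999% were called higher, 0.325% lower and 1.32% either way. These shares are the background for each count of called genes below. Of the 10 log2 fold changes, 5 lay above 0 and 5 below, with a median of 0.08 against -0.02 over all tested rows. Among the 8 not called they ran from -0.28 for Cd276 to 0.44 for Havcr2, and 0 of the 8 had an unadjusted p under 0.05, a level that 6.08% of tested rows passed. Both calls were lost under the Benjamini-Yekutieli adjustment (q = 0.0676 for Cd274 and 0.434 for Cd40) and when p was taken from the test statistic and a normal distribution (q = 0.907 for Cd274). The smallest Cuffdiff p was 5e-05, held by 91 tested rows with Cd274 among them. At that floor the Benjamini-Yekutieli adjustment called 0 rows in all, so this loss is not particular to Cd274 and Cd40. In bulk RNA, fewer cells of a type and less RNA per cell cannot be told apart.

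**Figure D1:**
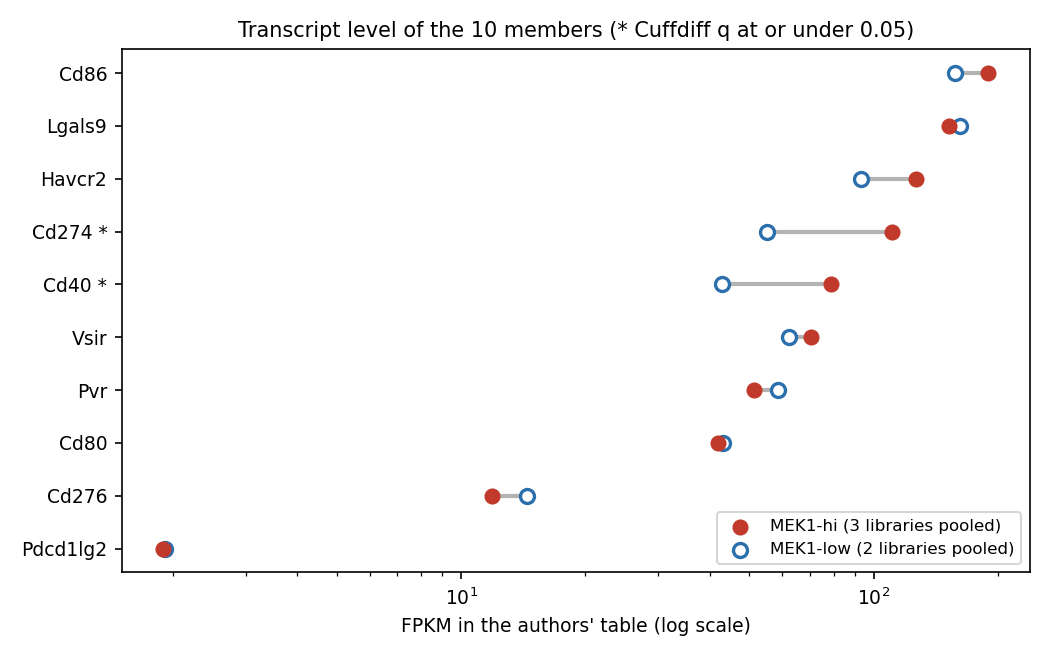
FPKM of the 10 members in the authors' table on a log axis, with filled points for MEK1-hi (3 libraries pooled), open points for MEK1-low (2 libraries pooled), and no error bars because the table has 1 value per group. The widest gaps are those of Cd274 (111 FPKM in MEK1-hi, 55.1 FPKM in MEK1-low) and Cd40 (79.0 FPKM in MEK1-hi, 42.8 FPKM in MEK1-low), marked with asterisks for a Cuffdiff q at or under 0.05.

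Cd274 encodes PD-L1. In the authors' deposited table it had 111 FPKM (a fragment count scaled for transcript length and library size, 1 pooled estimate per group) in MEK1-hi and 55.1 FPKM in MEK1-low. That was a 2.02-fold rise, or 1.01 on the log2 scale, with a Cuffdiff statistic of 2.68 and q = 0.00676. Its log2 fold change lay above those of 98.1% of tested rows. The locus spans mm10 chromosome 19, 29367438 to 29388094, on the plus strand, and no other row of the table overlaps it.

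Pdcd1lg2, the PD-L2 gene, lies 22824 bases further along the same chromosome (29410919 to 29472927, plus strand). The authors' deposited table gave 1.89 FPKM in MEK1-hi and 1.91 FPKM in MEK1-low (log2 fold change -0.02, q = 0.9998). It was the lowest member in both groups, above only 17.1% of tested rows in MEK1-hi and 16.4% in MEK1-low. The FPKM ratio of Cd274 to Pdcd1lg2 was 58.7 in MEK1-hi and 28.8 in MEK1-low. The change of a ratio could not be tested, since no spread between libraries is in the table.

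The tested rows around the pair did not pass either. They include Jak2, the kinase of the interferon-gamma receptor, which had 37.3 FPKM in MEK1-hi and 29.9 FPKM in MEK1-low in the authors' deposited table (q = 0.9998). Plgrkt, a plasminogen receptor gene and the row before Cd274, had 59.0 FPKM in MEK1-hi and 51.5 FPKM in MEK1-low there (q = 0.9998). Of the 3 tested rows on each side of Cd274 and of Cd40, 0 were called.

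The other inhibitory ligands had differences under 0.3 on the log2 scale. Lgals9 encodes galectin-9, a secreted lectin described as a TIM-3 ligand. In the authors' deposited table it had 152 FPKM in MEK1-hi and 162 FPKM in MEK1-low (log2 fold change -0.09, q = 0.9998). Vsir, whose product VISTA restrains T cells and is typical of myeloid cells, had 70.5 FPKM in MEK1-hi and 62.4 FPKM in MEK1-low (0.18, q = 0.9998). The authors' locus for Vsir is that of Cdh23 (chromosome 10, 60302750 to 60696490), a larger gene around it on the other strand. Cdh23 had 0.122 FPKM in MEK1-hi and 0.0660 FPKM in MEK1-low in the authors' deposited table and was not tested. Whether reads of Cdh23 were counted for Vsir, or the reverse, was not tested. The strand setting, which bears on reads from bases that both annotations cover, is unknown for the authors' counting.

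Pvr and Cd276 are made by many tumor and stromal cells as well as by myeloid cells. Pvr, the ligand of TIGIT, CD96 and the activating receptor CD226, had 51.3 FPKM in MEK1-hi and 58.8 FPKM in MEK1-low in the authors' deposited table (log2 fold change -0.20, q = 0.9998). Cd276 had 11.9 FPKM in MEK1-hi and 14.5 FPKM in MEK1-low (-0.28, q = 0.9998). The authors' Cd276 locus (chromosome 9, 58524300 to 58540940) covers 53.4% of the gene's span in GENCODE M21 and stops short of its annotated start, so its FPKM rests on part of the gene. Fibroblast and tumor markers lay lower in MEK1-hi in 12 of 12, and none was at 0. Of these markers, 4 were called lower (Acta2, Col6a3, Thy1, Col5a1) and 0 higher, against 0.325% of all tested rows called lower. Their summed FPKM was 1162 in MEK1-hi and 1806 in MEK1-low. Their part in the values of Pvr and Cd276 was not tested.

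Of the CD28 ligands, Cd86 was the more abundant in both groups. The authors' deposited table gave Cd86 190 FPKM in MEK1-hi and 157 FPKM in MEK1-low (log2 fold change 0.27, statistic 0.673, q = 0.9998). Cd80 had 41.9 FPKM in MEK1-hi and 43.1 FPKM in MEK1-low there (-0.04, q = 0.9998). Cd86 thus stood at 4.53 times the FPKM of Cd80 in MEK1-hi and 3.65 times in MEK1-low. CD80 also binds PD-L1 on the same cell surface, and the FPKM ratio of Cd274 to Cd80 was 2.65 in MEK1-hi and 1.28 in MEK1-low, untested like the other ratios. Both genes lie on chromosome 16, Cd80 at 38458933 to 38495958 on the plus strand and Cd86 at 36603869 to 36666077 on the minus strand.

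Cd40, the other member that rose, had 79.0 FPKM in MEK1-hi and 42.8 FPKM in MEK1-low in the authors' deposited table. The rise was 1.85-fold (0.88 on the log2 scale, statistic 2.35, q = 0.0434), close to the threshold. Its locus is on chromosome 2, 165055636 to 165071654, on the plus strand. Havcr2, whose product TIM-3 is an inhibitory receptor of T cells that macrophages and dendritic cells also carry, had 127 FPKM in MEK1-hi and 93.4 FPKM in MEK1-low (log2 fold change 0.44, q = 0.923). It had the largest difference among members not called, above 92.1% of tested rows, and did not pass. The FPKM ratio of Lgals9 to Havcr2 was 1.20 in MEK1-hi and 1.74 in MEK1-low.

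Cd274 ranked 4 of 10 in level in MEK1-hi and 6 of 10 in MEK1-low, and Cd40 ranked 5 of 10 in MEK1-hi and 8 of 10 in MEK1-low. In MEK1-hi it ran, from high to low FPKM, Cd86, Lgals9, Havcr2, Cd274, Cd40, Vsir, Pvr, Cd80, Cd276, Pdcd1lg2. In MEK1-low it ran Lgals9, Cd86, Havcr2, Vsir, Pvr, Cd274, Cd80, Cd40, Cd276, Pdcd1lg2. FPKM is scaled for length, so levels can be set side by side, but whether neighbors in either order differ cannot be judged without values per library. The 10 members summed to 836 FPKM in MEK1-hi and 691 FPKM in MEK1-low, and Cd274 made up 13.3% of the sum in MEK1-hi and 7.96% in MEK1-low. The sums differed by a net 145 FPKM. The 5 members above 0 were together 166 FPKM higher in MEK1-hi, and 92.1 FPKM of this lay in the 2 called members.

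**Figure D2:**
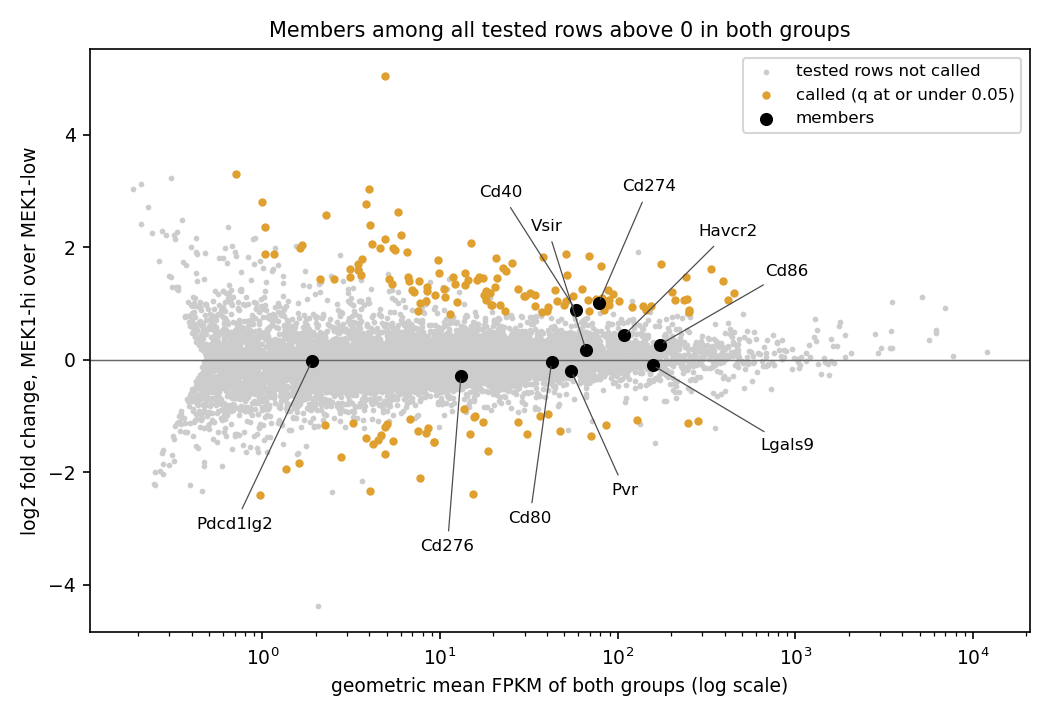
Each point is a tested row of the authors' table above 0 in both groups, with the geometric mean FPKM of both groups on a log axis and the log2 fold change, MEK1-hi over MEK1-low, on the other. The members are black, called rows orange, and Cd274 (1.01) and Cd40 (0.88) lie at the lower edge of the called rows while the other 8 members lie between -0.28 and 0.44.

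The size of difference this test could call depended on the level. Among the 500 tested rows nearest in level to Cd86, 15 were called, the smallest of these at a log2 difference of 0.84. Near Havcr2 the smallest was 0.89 with 16 called, and near Cd80 it was 0.86 with 8 called. For Pdcd1lg2, 2 of the 500 nearest rows were called, the smaller at 1.43, so that at its level a change as large as that of Cd274 was below any called. A difference of the size seen for Cd86 or Havcr2 is therefore not shown to be absent. It was smaller than any difference the authors' test called at that level.

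Ligands related to the members, outside the named 10, were mostly not called. Of all tested rows 1.32% were called either way, so a count of 0 in a short list is near the background. Of 3 tested genes among other B7 and butyrophilin-type ligands, 0 were called in either direction. Icosl, the ICOS ligand, had 19.1 FPKM in MEK1-hi and 14.3 FPKM in MEK1-low in the authors' deposited table (q = 0.9998). Vsig4 had 2.18 FPKM in both groups, and Btnl2 1.28 FPKM in MEK1-hi and 1.15 FPKM in MEK1-low. Of the 9 listed, 6 were not tested, and Vtcn1, which encodes B7-H4, was listed at 0 in both groups.

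Among 14 tested genes of other checkpoint ligands, 1 was called higher and 0 lower (median log2 fold change 0.17). It was Fgl2, a fibrinogen-like protein that acts on T cells when secreted, with 308 FPKM in MEK1-hi and 134 FPKM in MEK1-low in the authors' deposited table (1.20, q = 0.00676). Lgals3, the galectin-3 gene, had 507 FPKM in MEK1-hi and 449 FPKM in MEK1-low (0.18, q = 0.9998). Cd48, a ligand of CD244, had 96.3 FPKM in MEK1-hi and 80.3 FPKM in MEK1-low (0.26, q = 0.9998). An unadjusted Cuffdiff p under 0.05 was held by 2 of these 14 genes, both higher, against 6.08% of all tested rows. Costimulatory ligands of the TNF family had 0 of 5 called (median 0.28), near the background share of 1.32%. Their most abundant gene, Tnfsf9, the 4-1BB ligand, had 25.2 FPKM in MEK1-hi and 17.8 FPKM in MEK1-low there (q = 0.965). Tnfsf14 had 21.5 FPKM in MEK1-hi and 19.1 FPKM in MEK1-low, and Tnfsf15 had 2.53 FPKM in MEK1-hi and 1.61 FPKM in MEK1-low (q = 0.816). Tnfsf15 was the 1 gene of these 5 with an unadjusted Cuffdiff p under 0.05.

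The receptors these ligands meet on lymphocytes were mostly at low levels. Of 13 tested, 0 were called, near the background share of 1.32%. Their median log2 fold change was 0.39, with 10 above 0 and 3 below. An unadjusted Cuffdiff p under 0.05 was held by 3 of the 13, all higher, against 6.08% of all tested rows. Pdcd1, the PD-1 gene, named here for its pairing with Cd274 and after its values were seen, had 4.41 FPKM in MEK1-hi and 2.49 FPKM in MEK1-low in the authors' deposited table (0.82, q = 0.880). Selplg, a VISTA partner that macrophages also make, had 96.2 FPKM in MEK1-hi and 70.5 FPKM in MEK1-low (0.45, q = 0.867). Lag3 had 16.6 FPKM in MEK1-hi and 11.1 FPKM in MEK1-low (0.59, q = 0.685), and Cd244a had 6.56 FPKM in MEK1-hi and 3.90 FPKM in MEK1-low (0.75, q = 0.382).

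Inhibitory receptors of the myeloid cells themselves had 1 of 12 called higher and 0 lower (median 0.30, with 10 above 0). An unadjusted Cuffdiff p under 0.05 was held by 4 of the 12, all higher, against 6.08% of all tested rows. The called gene was Clec12a, an inhibitory C-type lectin, with 195 FPKM in MEK1-hi and 106 FPKM in MEK1-low in the authors' deposited table (0.89, q = 0.0202). Sirpa, the receptor for the signal of CD47, had 309 FPKM in MEK1-hi and 280 FPKM in MEK1-low (0.14, q = 0.9998). Lilrb4a had 215 FPKM in MEK1-hi and 197 FPKM in MEK1-low there (0.13, q = 0.9998).

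**Figure D3:**
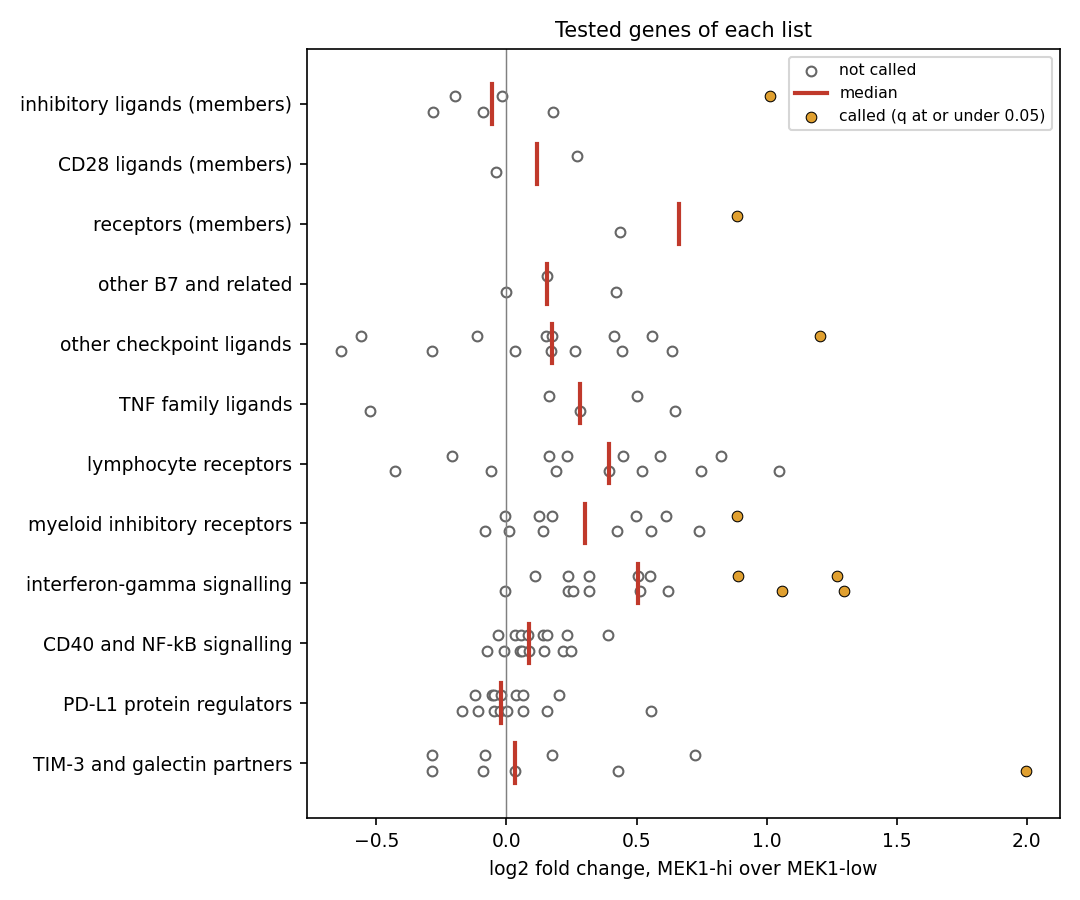
Log2 fold change, MEK1-hi over MEK1-low, of every tested gene in the members' 3 role groups and in 9 related lists, with filled points for genes called by Cuffdiff (q at or under 0.05), open points for the rest and red bars for medians. Interferon-gamma signalling holds 4 called genes and a median of 0.50, while CD40 and NF-kB signalling and the PD-L1 protein regulators hold 0 called genes and medians of 0.08 and -0.02.

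Of 15 tested genes of interferon-gamma signalling, 4 were called higher and 0 lower, against 0.999% of all tested rows called higher. In this list 14 lay above 0 (median 0.50). An unadjusted Cuffdiff p under 0.05 was held by 8 of the 15, all higher, against 6.08% of all tested rows. The receptor genes Ifngr1 (0.24) and Ifngr2 (0.25) and the kinase genes Jak1 (-0.01) and Jak2 (0.32) were not called. Irf1, a transcription factor known to act on the Cd274 promoter, had 305 FPKM in MEK1-hi and 146 FPKM in MEK1-low in the authors' deposited table (1.06, q = 0.0163). Irf8, a factor of myeloid cells, had 114 FPKM in MEK1-hi and 61.6 FPKM in MEK1-low (0.89, q = 0.0344). The feedback inhibitor Socs1 had 31.8 FPKM in MEK1-hi and 13.0 FPKM in MEK1-low (1.30, q = 0.00676), and the class II transactivator Ciita had 16.4 FPKM in MEK1-hi and 6.79 FPKM in MEK1-low (1.27, q = 0.00676). That interferon-gamma genes rose here was known when this list was chosen, so the counts are no independent support. The part of interferon-gamma in the rise of Cd274 was not tested.

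Of 15 tested genes known to act on the PD-L1 protein, 0 were called, with a median of -0.02 and 7 above 0. With 1.32% of all tested rows called, a count of 0 in a list of this size is near the background. An unadjusted Cuffdiff p under 0.05 was held by 0 of the 15. Cmtm6, which protects PD-L1 from breakdown, had 74.1 FPKM in MEK1-hi and 70.9 FPKM in MEK1-low in the authors' deposited table (q = 0.9998). Adam17, a sheddase, had 93.9 FPKM in MEK1-hi and 84.3 FPKM in MEK1-low, and Sec61b 62.0 FPKM in MEK1-hi and 60.4 FPKM in MEK1-low (both q = 0.9998). PD-L1 protein was not measured.

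Of 16 tested TRAF and NF-kB genes, which act downstream of CD40, 0 were called and 0 had an unadjusted p under 0.05, with a median of 0.08 and 13 above 0. This count too is near the background share of 1.32%. Nfkbia, the NF-kB inhibitor that the pathway itself induces, had 591 FPKM in MEK1-hi and 534 FPKM in MEK1-low in the authors' deposited table (0.15, q = 0.9998). Tnfaip3 had 181 FPKM in MEK1-hi and 191 FPKM in MEK1-low, and Nfkbie 165 FPKM in MEK1-hi and 126 FPKM in MEK1-low (both q = 0.9998). A list of TIM-3 relatives and partners and of galectins had 9 tested genes, the member Lgals9 among them. Its Lgals3, Hmgb1 and Ceacam1 were also counted with the other checkpoint ligands. In this list 1 gene was called higher and 0 lower. It was Timd4, which encodes the TIM family receptor TIM-4, with 9.13 FPKM in MEK1-hi and 2.29 FPKM in MEK1-low (1.99, q = 0.00676). An unadjusted Cuffdiff p under 0.05 was held by 2 of these 9 genes, both higher, against 6.08% of all tested rows.

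The macrophage label held up against its markers, and other cells were present in the RNA. All 12 macrophage markers were found, up to 6372 FPKM for Lyz2 in MEK1-hi and 4999 FPKM in MEK1-low, with 0 called and a median of 0.00. They split into 6 above 0 and 6 below. The largest shift was that of Mrc1, with 142 FPKM in MEK1-hi and 236 FPKM in MEK1-low (log2 fold change -0.73, q = 0.460, not called). Dendritic cells, which carry CD80, CD86, CD40 and PD-L1 at high density when mature, had 4 of 10 markers called higher (Clec9a, Xcr1, Cadm1, Kit) and 0 lower. The called genes include markers of the cross-presenting type, while Cd209a, a marker of another type, had 4.64 FPKM in MEK1-hi and 9.68 FPKM in MEK1-low (log2 fold change -1.06, q = 0.274, not called), and Clec10a lay at -0.23 and was not called. The summed FPKM of all 10 was 89.2 in MEK1-hi and 53.4 in MEK1-low. Markers of mature dendritic cells had 0 called higher and 1 lower (Ccl17) of 9 tested, summing to 721 FPKM in MEK1-hi and 622 FPKM in MEK1-low, of which Cd83 alone gave 615 FPKM in MEK1-hi and 487 FPKM in MEK1-low. The median log2 fold change of these 9 was -0.31, with 3 above 0 and 6 below. Monocyte markers had 4 of 8 called higher (Ly6c2, Plac8, Ace, Treml4) and 0 lower, with Vcan at -0.72 and not called, and sums of 384 FPKM in MEK1-hi and 220 FPKM in MEK1-low. Of all tested rows, 0.999% were called higher and 0.325% lower. No marker of these 4 cell types was at 0, and the part of these cells in the rise of Cd274 and Cd40 was not tested.

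Lymphocyte markers, which bear on the lymphocyte receptors, were at low levels. NK cell markers had 2 of 6 tested called higher (Klrk1, Tbx21) and 0 lower, against 0.999% of all tested rows called higher. They summed to 36.6 FPKM in MEK1-hi and 12.0 FPKM in MEK1-low, of which Klrk1 alone gave 18.1 FPKM in MEK1-hi and 5.27 FPKM in MEK1-low. Ncr1, Klrb1c and Eomes were not tested, at 0.0889, 0.0903 and 0.182 FPKM in MEK1-hi and 0.0737, 0.0288 and 0.0862 FPKM in MEK1-low. All 6 tested NK cell markers lay above 0. An unadjusted Cuffdiff p under 0.05 was held by 5 of these 6, against 6.08% of all tested rows. Whether NK cells were more numerous in MEK1-hi was not tested. T cell markers had 0 of 9 called and 7 above 0, with sums of 19.5 FPKM in MEK1-hi and 13.6 FPKM in MEK1-low. None was at 0, and their part in the values of Pdcd1, Lag3 and Cd244a was not tested. Markers of B cells (1 of 5 tested), neutrophils (4 of 7 tested) and endothelial cells (4 of 6 tested) had 0 called. Their sums were 9.59 FPKM in MEK1-hi and 8.57 FPKM in MEK1-low for B cells, 63.4 FPKM in MEK1-hi and 56.1 FPKM in MEK1-low for neutrophils, and 10.4 FPKM in MEK1-hi and 9.62 FPKM in MEK1-low for endothelial cells, again with none at 0.

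**Figure D4:**
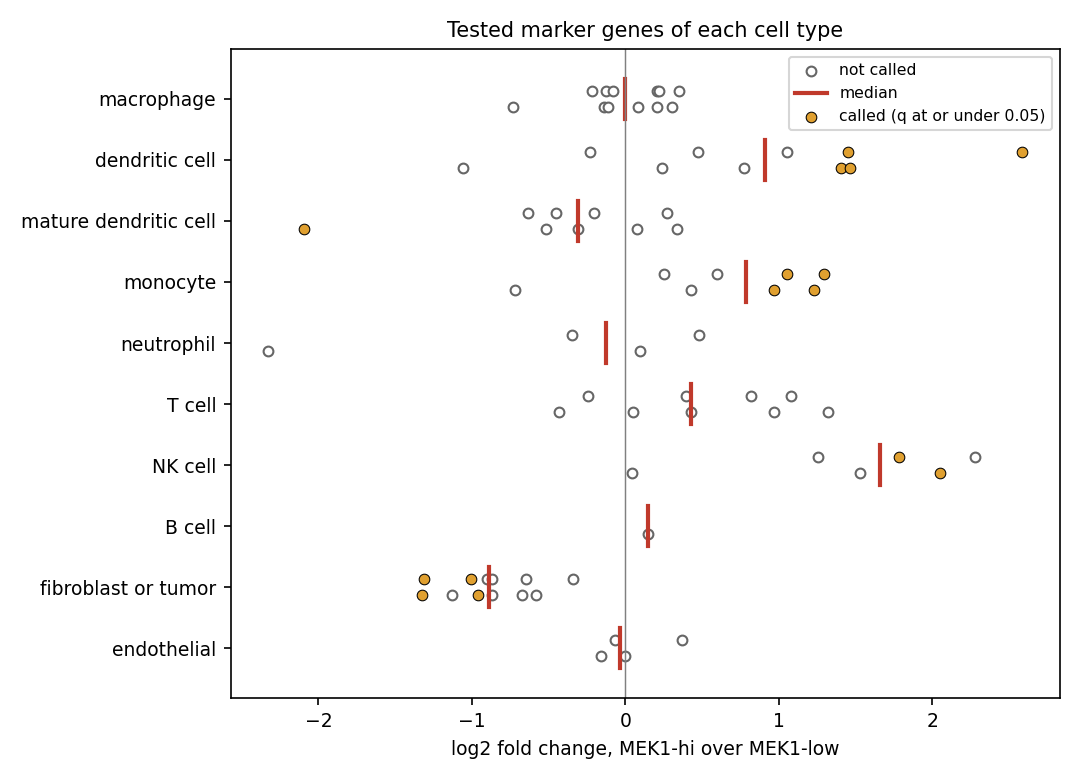
Log2 fold change, MEK1-hi over MEK1-low, of the tested marker genes of each cell type, with filled points for genes called by Cuffdiff (q at or under 0.05) and red bars for medians. Macrophage markers center on 0.00, dendritic cell, monocyte and NK cell markers lie mostly above 0 (medians 0.91, 0.78 and 1.66), and all 12 fibroblast or tumor markers lie below 0 (median -0.89).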

How the data were processed

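RNA-seq was made from 3 MEK1-hi and 2 MEK1-low libraries of mouse tumor macrophages. Per the labels' protocols, poly(A) libraries came from a stranded kit and were read as 100-base pairs, at a planned depth of about 25000000 reads. FastQC 0.73, TopHat, Cufflinks, Cuffdiff and mm10 are named per the submitters' processing notes. Neither annotation nor strand setting is stated in the sources used here. The single deposited file is a Cuffdiff table, and the authors pooled its FPKM values per group. Its test statistic, a score, and its p-value and q-value columns were taken as deposited. The q values equal Benjamini-Hochberg adjustment of p over 12311 tested rows, to within rounding. Depth per library is unknown. The p value is Cuffdiff's own, and the libraries may be technical replicates, so it need not measure the spread between animals.

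The log2 fold change was computed from the 2 FPKM values, because 515 cells of the deposited column hold error text. Locus starts count from 0 (14438 of 24385 RefSeq starts lay exactly 1 base further) and are printed from 1. Calls are Cuffdiff's at q of 0.05, and no count model could be run on FPKM. Adjustments were tested on simulated data. Named beside the members are each list's called genes and, with fewer than 3 called, its most abundant up to 3; marker lists are given mainly by counts. 1 gene of the interferon-gamma list is not reported here and was left out of its counts. The members and lists were chosen with earlier results of these data known. With 1 value per group, likeness between genes across samples could not be measured. The neighboring rows, the GAAA search and 3 of the ratios were chosen after values were seen. Alternatives changed the q threshold, the adjustment, the source of p, the pseudocount and the scaling. Scripts ran on Python 3.11.15 (scipy 1.17.1, pandas 2.3.3, numpy 2.4.6, and matplotlib 3.10.9 for plots).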

Additional observations from a re-analysis of the deposited data

How the results depend on the processing

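The 2 called members depended on the adjustment. At a q of 0.01, 1 member (Cd274) was called. Under the Benjamini-Yekutieli adjustment 0 members were called (0 rows in all), with q = 0.0676 for Cd274 and 0.434 for Cd40. Cd274 shares the smallest Cuffdiff p, 5e-05, with the other rows of the 91 at that floor. Its 0.0676 was therefore the lowest q this adjustment gave to any row. With p from the test statistic and a normal distribution 0 members were called (15 rows in all), with q = 0.907 for Cd274. The cause of this gap was not tested. At a q of 0.1, over rows with an FPKM of at least 1, and with rows naming the member alone, 2 were called. Scaling both groups to equal FPKM sums lowers every log2 fold change by 0.099, to 0.91 for Cd274 and 0.79 for Cd40, and a pseudocount of 1 gives 1.00 and 0.87. Q was not recomputed for these. With the median of tested rows at 0, Pdcd1lg2 turned from -0.02 to 0.0062. The other members kept their sign under every pseudocount and scaling run, and the lists' counts of called genes did not change with the FPKM filter. Among the 200 nearest rows, none was called near Pdcd1lg2 or Cd276, so no smallest difference can be given there. No paired analysis was possible because the table holds 1 pooled value per group, and for the same reason no replicate could be left out.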

Other observations

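Besides Cd274, which neighbors Pdcd1lg2, called genes lay beside 2 members that did not pass. Of all tested rows, 1.32% were called. Of 54 different tested rows within 3 rows of a member, the members themselves left out, 2 were called in the authors' deposited table. Nos2, the inducible nitric oxide synthase, is the row next to Lgals9 on chromosome 11 and had 6.73 FPKM in MEK1-hi and 1.95 FPKM in MEK1-low there (log2 fold change 1.79, q = 0.00676). Timd4, a phosphatidylserine receptor gene, is the row next to its relative Havcr2 on the same chromosome, with 9.13 FPKM in MEK1-hi and 2.29 FPKM in MEK1-low (1.99, q = 0.00676). The median log2 fold change of the 54 was 0.04.

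Interferon elements were held by a larger share of the genes called higher than of all tested genes. Of 89 genes called higher with a RefSeq window, 23.6% held an interferon-stimulated response element in at least 1 window and 22.5% held a gamma-activated sequence, against 4.08% and 8.28% of the 9935 tested genes with a window. The kappaB consensus was in 15.7% of the called genes and 12.4% of the tested genes. These shares are descriptions with no test. Cd274 was among the called genes whose window held none of the 3 motifs.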
